A study of Mus musculus with 9 samples.

Results

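The regulators of G protein signalling (RGS) described here are 8 genes of the deposited count table, Rgs1, Rgs2, Rgs3, Rgs10, Rgs12, Rgs14, Rgs18 and Rgs19, of 14209 genes in all. The rule takes a list of named members of the RGS family with a row in the table. It sets no level or difference as a condition, but the list was chosen with earlier results of these data known. Rgs9, Rgs11 and Rgs20 also have rows, with 24, 344 and 31 counts over all libraries, and are not among the 8. RGS proteins bind active G protein alpha subunits and speed up the hydrolysis of their GTP, so that a receptor's signal ends sooner. Rgs1, Rgs2, Rgs3 and Rgs18 belong to the R4 subfamily of mostly small proteins, Rgs10, Rgs12 and Rgs14 to the R12 subfamily, and Rgs19 to the RZ subfamily. They act on alpha subunits of the Gi and Gq classes, which carry chemokine receptor and calcium signals in leukocytes, whereas Gα13 is served by RhoGEFs that carry an RGS homology domain, such as Arhgef1, Arhgef11 and Arhgef12.

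The libraries hold RNA of cDC2s, the type 2 conventional dendritic cells, which present antigen mainly to CD4 T cells, from the spleen of C57BL/6 mice. WT, CD97 KO and G13 KO cells gave 3 libraries each. CD97 KO cells (Adgre5-/-) lack the adhesion receptor CD97, whose gene is listed as Cd97, and G13 KO cells carry CD11c-Cre and floxed alleles of Gna13, the gene of Gα13. The CD11c promoter is active in dendritic cells and also in some other myeloid cells. The genotype field of the G13 KO libraries also names Adgre5-/-, and the sources used here do not say whether WT and CD97 KO mice carried the Cre. Age, sorting and the number of animals behind a library are not given either, so every p-value measures library-to-library spread, part of which may be technical.

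Totals ran from 5679946 to 13904646 counts per library. Levels are in CPM, counts relative to the TMM-scaled library total. Gna13 had 226, 228 and 186 CPM in WT replicates 1 to 3 and 113, 96.7 and 91.7 in the G13 KO ones. Cd97 had 1505, 899 and 1298 CPM in the WT replicates, 725, 839 and 437 in those of CD97 KO and 1144, 1223 and 1015 in those of G13 KO. Its difference in CD97 KO cells did not pass the edgeR test (adjusted p = 0.105). Of 12 listed cDC2 markers 11 averaged at least 10 CPM in WT, the exception being Dcstamp. The summed level of 16 red pulp macrophage markers varied within every group, from 448 to 1463 CPM in WT, 506 to 1860 in CD97 KO and 623 to 1002 in G13 KO libraries. Summed monocyte markers had 187 to 311 CPM in WT, 209 to 257 in CD97 KO and 316 to 441 in G13 KO libraries. Those of plasmacytoid dendritic cells had 156 to 216, 173 to 199 and 220 to 341. Neutrophil and natural killer markers, at most 6.92 CPM, also lay above WT in every G13 KO library. The sums of the other cell types overlapped between WT and G13 KO libraries. Summed cDC2 markers had 10134 to 11723 CPM in WT, 9236 to 9718 in CD97 KO and 9646 to 10841.5 in G13 KO libraries. Every CD97 KO library thus lay below every WT library in cDC2 markers, whereas the other sums overlapped between these groups. The causes were not tested. Xist exceeded the Y-linked genes, a female pattern, in WT replicate 2, in all 3 CD97 KO libraries and in G13 KO replicate 2. All CD97 KO libraries share that pattern, so WT replicate 2 alone sets sex apart from CD97 genotype in that comparison's own groups.

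No RGS gene was called different between genotypes. Of the 8 members, 0 passed edgeR's quasi-likelihood test (adjusted p under 0.05 over 12043 genes) in CD97 KO against WT cells, where 8.53% of all tested genes passed. In G13 KO against WT cells 0 passed as well, against 11% of all genes, and between the knockouts 0 passed, against 0.0498%. At an unadjusted p under 0.05 the counts were 1, 0 and 0 members in the same order, against 24.5%, 25.8% and 6% of all genes, and DESeq2 called 0 in each. The libraries of the groups did not overlap for 1, 0 and 1 members, against 28.2%, 29.6% and 13.1% of all genes. All 8 members had passed the filter on low counts. The median log2 fold change of the members was 0.07, 0.02 and 0.10 in the 3 comparisons, and that of all tested genes was 0.00, -0.01 and 0.00. In each comparison 5 members lay above 0 and 3 below. In bulk RNA, fewer cells of a type and less RNA per cell cannot be told apart.

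**Figure D1:**
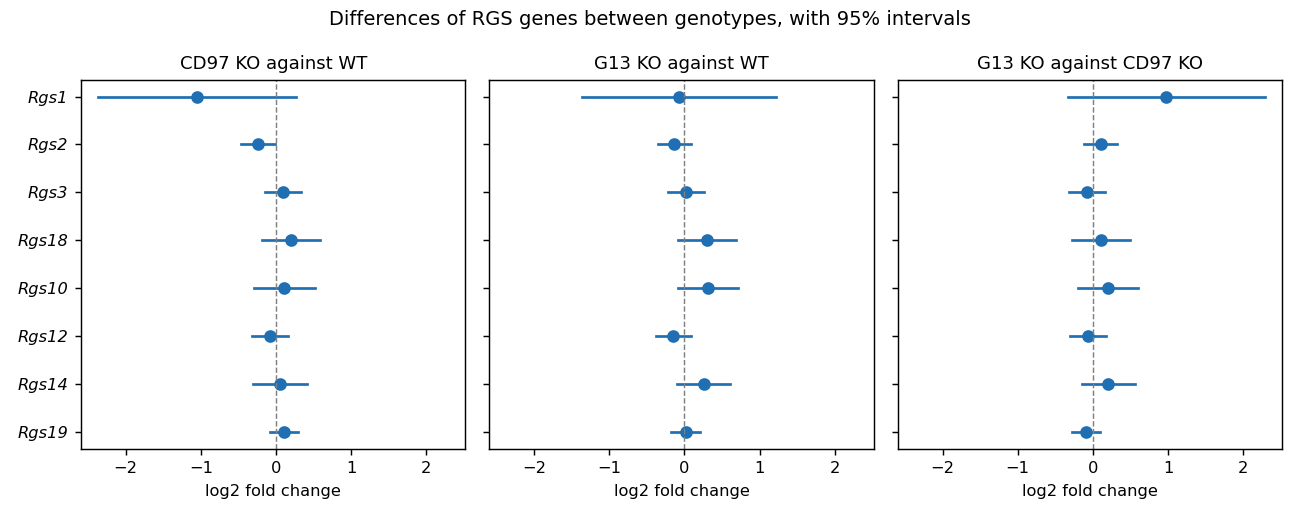
Log2 fold change (point) with its 95% interval (line) of each RGS gene in the 3 comparisons, from the fit of all 9 libraries. The intervals of Rgs1 are the widest, and the interval of Rgs2 in CD97 KO against WT cells, -0.46 to -0.01, is the only one that leaves out 0.

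Compared per length of transcript, the family was led by Rgs2. In WT cells Rgs2 had 483 ± 49.1 CPM per kb of exons of its coding transcripts (SD, n = 3), Rgs1 114 ± 68.4 and Rgs19 70.6 ± 5.80. Rgs12 followed with 26.0 ± 3.25 CPM per kb, Rgs10 with 23.2 ± 6.18 and Rgs18 with 14.6 ± 4.35. Rgs14 at 10.8 ± 2.31 and Rgs3 at 8.61 ± 1.35 CPM per kb were lowest. Rgs2 lay above every other member in all 9 libraries. Below it, the WT libraries of Rgs1 and Rgs19 overlapped, as did those of each neighbouring pair from Rgs12 down to Rgs3. The spread between WT libraries therefore does not separate these neighbours. Compared within each library, Rgs10 lay above Rgs18 and Rgs14 above Rgs3 in all 9 libraries with these lengths. Members further apart could also be separate, the lowest WT library of Rgs12 (22.3 CPM per kb) lying above the highest of Rgs18 (19.3). The step from Rgs19 to Rgs12 was 2.71-fold without overlap. With exons of all annotated transcripts as the length, a choice added after seeing the data, Rgs1 stood behind Rgs19 in WT (63.0 and 67.7 CPM per kb) and Rgs14 behind Rgs3 (6.00 and 6.24). In the CD97 KO libraries Rgs19 (75.9 ± 3.22 CPM per kb) stood above Rgs1 (55.0 ± 17.4) without overlap.

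**Figure D2:**
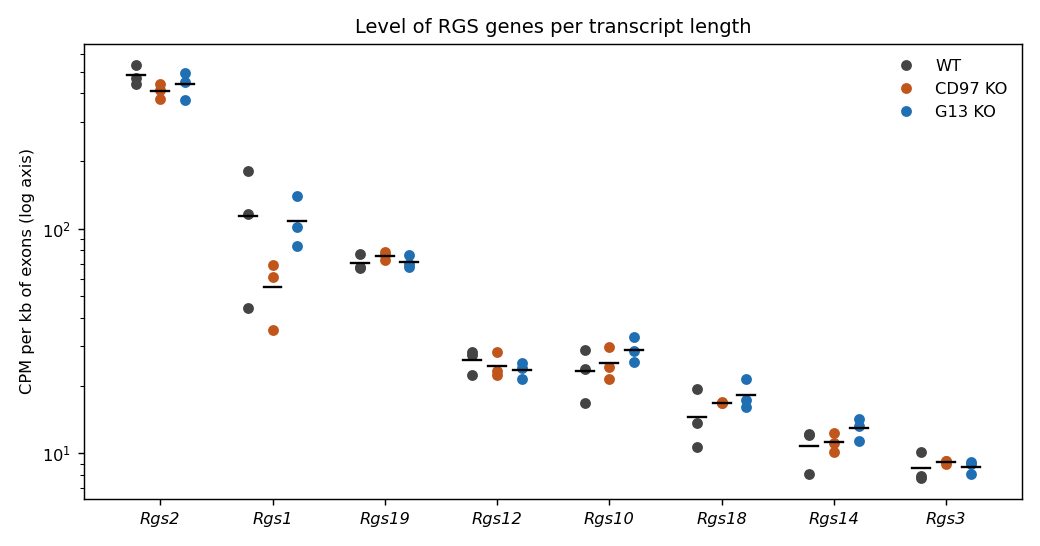
CPM per kb of exons (log axis) for the RGS genes in each library, ordered by the WT mean; points are libraries coloured by genotype and bars are group means. Rgs2 sits above the others in every library, and Rgs1 spans the widest range.

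Rgs2, an R4 protein known for its preference for Gq, lies on chromosome 1 (mm10, 143999338 to 144004161, minus strand), in the same stretch as Rgs1 (144242296 to 144249242) and Rgs18 (144752683 to 144775435), both also on the minus strand. RefSeq promoter entries (GRCm38.p6, the assembly of mm10) matched 5 of the 8 members, not Rgs1, Rgs14 and Rgs18. Those of Rgs2, the most abundant member, and Rgs19, the member with the least spread between libraries, are shown for the 250 bases before the start site (for Rgs19 the most upstream of its starts), at chr1:144004150-144004399 and chr2:181693978-181694227, both on the minus strand. Capitals mark matches on either strand to GGGCGG (GC box) or TGACG (the core of a cyclic AMP response element, also contained in the full element).
Rgs2: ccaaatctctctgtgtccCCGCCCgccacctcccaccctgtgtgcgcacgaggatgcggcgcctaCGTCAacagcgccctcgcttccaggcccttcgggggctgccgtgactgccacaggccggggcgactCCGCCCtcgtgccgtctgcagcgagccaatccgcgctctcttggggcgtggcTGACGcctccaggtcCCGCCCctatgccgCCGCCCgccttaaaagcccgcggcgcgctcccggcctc
Rgs19: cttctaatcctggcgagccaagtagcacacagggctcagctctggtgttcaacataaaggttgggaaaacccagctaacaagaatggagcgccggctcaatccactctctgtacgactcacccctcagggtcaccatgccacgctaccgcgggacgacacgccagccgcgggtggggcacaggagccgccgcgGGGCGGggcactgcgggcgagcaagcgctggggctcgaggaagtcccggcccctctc
The Rgs2 window held 4 GC boxes and 2 core elements, and the Rgs19 window 1 GC box and 0 core elements. Among 32851 windows of the same length, 32.7% held a GC box and 17.8% a core element. The full element, TGACGTCA (1.55% of windows), TGANTCA (an AP-1 site, 6.75%), TATAAA (12.4%) and an NF-κB site (7.25%) were not among the letters of either window. G and C made up 72.4% of the Rgs2 window and 64.8% of the Rgs19 window. The windows of the other Rgs19 starts, not shown, had 74.8% and 54.4%. The former held GC boxes beginning at -224 and -94 from its start.

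Rgs2 was high in every library. It had 1532, 1436 and 1748 CPM in the WT replicates, 1342, 1428 and 1235 in those of CD97 KO and 1471, 1220.5 and 1604 in those of G13 KO. All CD97 KO libraries lay below all WT ones, and the G13 KO libraries overlapped both. The difference was a log2 fold change of -0.24 ± 0.10 (SE; 95% interval -0.46 to -0.01), with an unadjusted p of 0.0391 and an edgeR adjusted p of 0.178, which did not pass. For G13 KO cells the value was -0.13 ± 0.10 (-0.36 to 0.09; edgeR adjusted p = 0.448). Rgs2 was also divided by the sex pattern: the 5 female-pattern libraries had 1220.5 to 1436 CPM and the 4 male-pattern ones 1471 to 1748, with no overlap, as for 1.42% of tested genes. With the sex pattern in the model, the log2 fold change in CD97 KO cells was -0.06 (edgeR adjusted p = 0.852), and with the macrophage marker level it was -0.15 (0.424). The sex term was -0.26 ± 0.09 (female minus male, SE), with an unadjusted edgeR p of 0.0117 and an adjusted p of 0.993 (0.0581% of genes called). The other 7 members overlapped between the patterns.

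Rgs1, an R4 protein that damps chemokine receptor signals in lymphocytes and other leukocytes, was the member that varied most. It had 696, 446 and 170.4 CPM in the WT replicates, 265, 136 and 234 in those of CD97 KO and 538, 320.3 and 392 in those of G13 KO. WT replicate 3 lay among the CD97 KO libraries, while WT replicate 1 was the highest of all 9. The means were 437 ± 263 CPM in WT, 211 ± 67.0 in CD97 KO and 417 ± 111 in G13 KO cells (SD, n = 3 each). The log2 fold change in CD97 KO cells was -1.05 ± 0.54 (SE; 95% interval -2.36 to 0.26; edgeR adjusted p = 0.300). It was -0.55 without WT replicate 1 (adjusted p = 0.644) and -1.43 without WT replicate 3 (0.0937). In G13 KO cells it was -0.07 ± 0.53 (-1.36 to 1.22; edgeR adjusted p = 0.951). All G13 KO libraries lay above all CD97 KO ones, and that difference was 0.98 ± 0.54 (-0.33 to 2.29; edgeR adjusted p = 0.889). Doublings and halvings of Rgs1 against WT both lie inside the interval for G13 KO cells.

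Rgs1 had between 930 and 6382 counts per library, so its spread was far above counting error. Within groups its SD was 0.70 on the log2 CPM scale, above that of 99.6% of 566 genes whose mean level lay within 0.5 log2 units, whose median SD was 0.10. The ratio of Rgs2 to Rgs1 counts ran from 2.20 in WT replicate 1 to 10.5 in CD97 KO replicate 2, and was 10.3 in WT replicate 3.

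Rgs18, an R4 protein of blood cells known from platelets, had 39.1, 27.8 and 21.7 CPM in the WT replicates, 34.5, 34.0 and 33.9 in those of CD97 KO and 35.1, 43.4 and 32.6 in those of G13 KO. The WT libraries spanned those of both knockouts on the high and the low side except for G13 KO replicate 2, the highest. Its log2 fold change was 0.20 ± 0.18 (SE; 95% interval -0.19 to 0.58; edgeR adjusted p = 0.543) in CD97 KO and 0.30 ± 0.18 (-0.08 to 0.69; edgeR adjusted p = 0.311) in G13 KO cells. Without WT replicate 1 the latter was 0.57 and passed (edgeR adjusted p = 0.0447), and without WT replicate 3 it was 0.13 (0.690). The CD97 KO value ran from 0.02 to 0.45 without single libraries. Of 10 platelet and megakaryocyte markers 4 had rows, and their summed level was 9.90 to 15.0 CPM over all libraries, with overlapping ranges in the 3 groups. Itga2b had at most 2.04 CPM, Gp9 at most 0.908 and Gp1ba at most 4.54, and F2rl2 had 6.11 to 8.74.

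Rgs3, a longer R4 protein with isoforms that differ in their first part, had its highest library at 1.31 times its lowest. It had 62.0, 60.7 and 79.6 CPM in the WT replicates, 70.1, 72.8 and 72.7 in those of CD97 KO and 63.2, 71.6 and 70.1 in those of G13 KO. WT replicate 3 was the highest library. The log2 fold changes were 0.09 ± 0.11 (SE; 95% interval -0.15 to 0.33) and 0.02 ± 0.11 (-0.22 to 0.26), with edgeR adjusted p of 0.648 and 0.929.

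**Figure D3:**
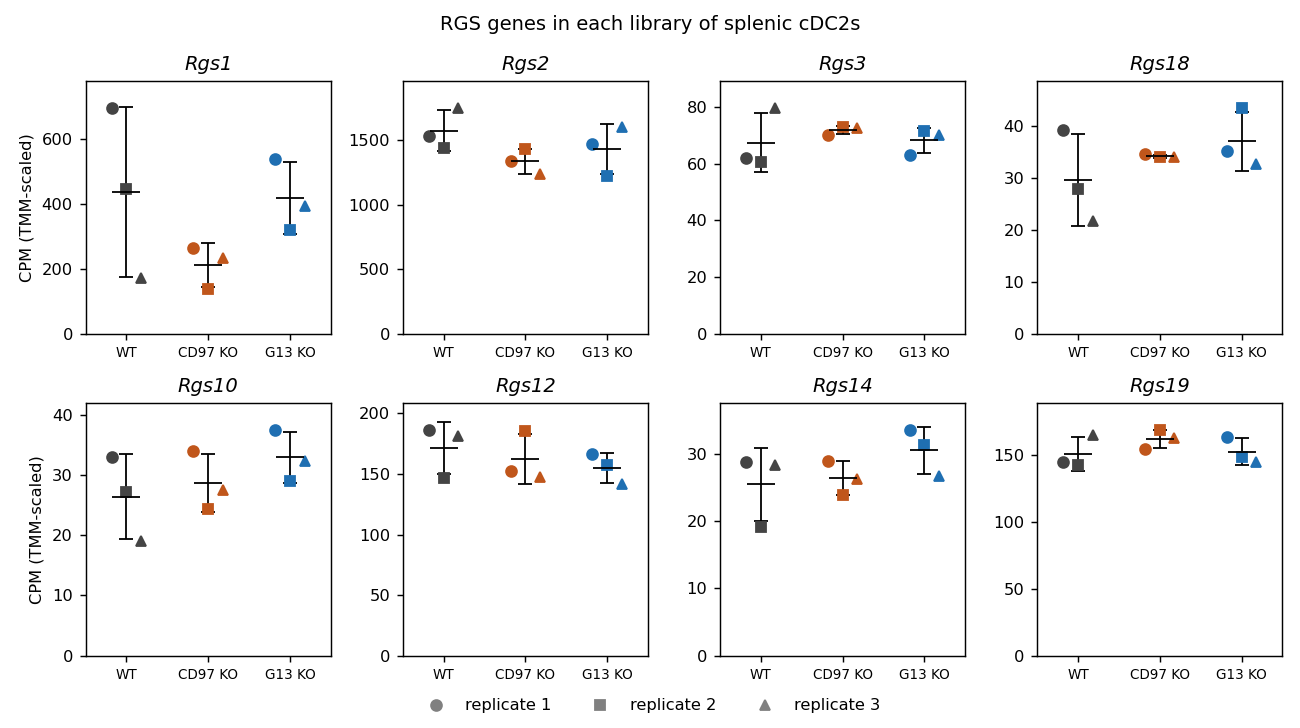
TMM-scaled CPM of each RGS gene in each library (points; the symbol gives the replicate number) with the group mean and SD (bars), axes starting at 0. Rgs1 ranges from 136 to 696 CPM, whereas Rgs19 stays between 143 and 169.

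Among the R12 members, Rgs10 is a small protein that acts on Gi subunits, and Rgs12 and Rgs14 are larger ones that also bind Ras-type GTPases and hold inactive Gi subunits. Rgs10 had 33.0, 27.2 and 19.0 CPM in the WT replicates, 33.9, 24.4 and 27.6 in those of CD97 KO and 37.4, 29.0 and 32.4 in those of G13 KO. The groups overlapped, and its log2 fold change was 0.11 ± 0.19 (SE; 95% interval -0.29 to 0.51) and 0.31 ± 0.19 (-0.09 to 0.71) in the knockouts, with edgeR adjusted p of 0.763 and 0.318. Rgs12 had 186, 147 and 181 CPM in the WT replicates, 153, 186 and 148 in those of CD97 KO and 166, 157 and 142 in those of G13 KO. WT replicate 2 was as low as the lower knockout libraries, and the log2 fold changes were -0.08 ± 0.11 (-0.32 to 0.16) and -0.15 ± 0.11 (-0.38 to 0.09), with edgeR adjusted p of 0.694 and 0.446. An antisense gene shares 5.50% of the annotated exon bases of Rgs12, and the sources used here do not say whether reads were counted by strand. Rgs14 had 28.8, 19.1 and 28.3 CPM in the WT replicates, 29.0, 23.9 and 26.2 in those of CD97 KO and 33.5, 31.3 and 26.7 in those of G13 KO. WT replicate 2 was the lowest of all, and the log2 fold changes of Rgs14 were 0.05 ± 0.17 (-0.30 to 0.41) and 0.26 ± 0.17 (-0.10 to 0.61), with edgeR adjusted p of 0.878 and 0.353. Between the knockouts, the R12 members differed by at most 0.20 on the log2 scale (Rgs10 and Rgs14; edgeR adjusted p = 0.948 for each).

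Rgs19, the RZ member, also called GAIP, had 145, 143 and 165 CPM in the WT replicates, 155, 169 and 163 in those of CD97 KO and 164, 148 and 145 in those of G13 KO. Its highest library was 1.18 times its lowest, the smallest span of the 8 genes. The log2 fold changes were 0.11 ± 0.09 (SE; 95% interval -0.08 to 0.29; edgeR adjusted p = 0.498) and 0.02 ± 0.09 (-0.17 to 0.20; edgeR adjusted p = 0.930). Of its like-level genes 30.8% had a lower SD within groups.

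The members were next compared with each other and with the rest of the transcriptome by their pattern over the 9 libraries. The genes nearest to Rgs1, by the root mean square difference of centred log2 CPM among 9430 genes, were Tnfsf9 (0.28), Plk3 (0.32) and Tnfsf15 (0.32). Tnfsf9 (4-1BB ligand) and Tnfsf15 (TL1A) are TNF family ligands that costimulate T cells, and Plk3 is a stress-responsive kinase. Tnfsf9 had 6.43, 5.97 and 1.87 CPM in the WT replicates, 3.55, 2.20 and 4.13 in those of CD97 KO and 8.06, 3.99 and 4.49 in those of G13 KO. It rested on as few as 11 counts in a library. Plk3 had 19.6, 19.3 and 9.50 CPM in the WT replicates, 11.5, 8.34 and 10.5 in those of CD97 KO and 18.8, 14.2 and 17.8 in those of G13 KO. Like Rgs1, both genes had their lowest WT level in replicate 3 and their lowest CD97 KO level in replicate 2. Both were chosen by nearness to the Rgs1 profile, so the shared low libraries are no separate result. The genes nearest to Rgs2 were Lpar6 (0.06), a receptor for lysophosphatidic acid, Rtn4ip1 (0.06), a mitochondrial oxidoreductase, and Bace1 (0.07), a protease.

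Rgs10 ordered the 3 libraries of each group exactly as Rgs1 did, from replicate 1 down to 3 in WT and through replicates 1, 3 and 2 in both knockouts. That agreement was noticed after the values were seen, and 0.747% of the 12042 other genes, Rgs10 among them, had the order of Rgs1. No other pair of members shared its order in all 3 groups, and none had the exact opposite order. The span of Rgs10 was smaller, with its highest library 1.97 times its lowest against 5.11 times for Rgs1.

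**Figure D4:**
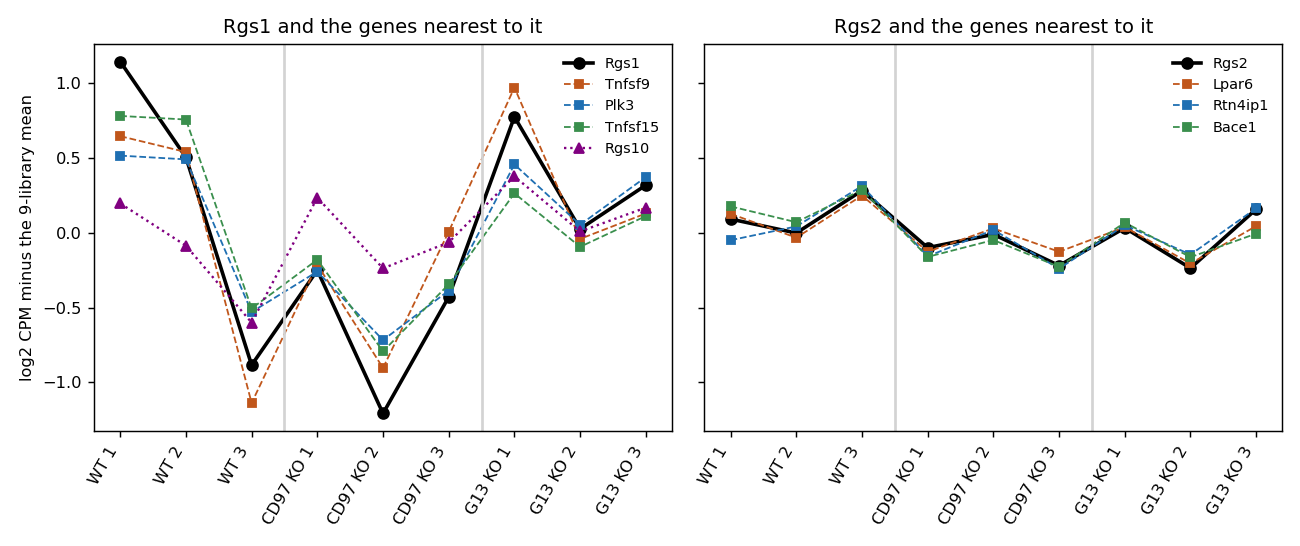
Log2 CPM minus the mean over 9 libraries for Rgs1 with Rgs10 and its 3 nearest genes (left) and for Rgs2 with its 3 nearest genes (right), on the same vertical scale; vertical lines separate the genotypes. WT replicate 3 and CD97 KO replicate 2 are low for Rgs1, Tnfsf9, Plk3 and Tnfsf15, the last 3 having been chosen for likeness to Rgs1.

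Some other genes of the G protein pathway did pass the test. Among 14 other proteins with an RGS homology domain 0 passed in CD97 KO cells, and in G13 KO cells 1 rose and 2 fell (median log2 fold change -0.12 and 0.05), beside 8.53% and 11% of all tested genes. Arhgef12 (LARG), a RhoGEF driven by Gα13, had 33.4, 28.8 and 22.2 CPM in WT replicates against 16.5, 15.6 and 11.9 in G13 KO ones. It fell by 0.96 on the log2 scale (edgeR adjusted p = 0.00401), and the call held in all 9 fits that each left out a library. Grk6, a receptor kinase, rose by 0.52 (edgeR adjusted p = 0.0341) and Snx13, a sorting nexin, fell by 0.34 (0.0420). Neither passed with the replicate block in the 2 groups (0.0531 and 0.0600). Grk6 lost its call without WT replicate 1 or 2 or G13 KO replicate 1 or 2 (0.0614 to 0.130). Snx13 lost it without WT replicate 1 or 3, CD97 KO replicate 1 or 2 or G13 KO replicate 1 or 2 (0.0521 to 0.159). In CD97 KO cells Arhgef12 (-0.49), Grk6 (0.41) and Snx13 (-0.31) moved in the same direction without passing (edgeR adjusted p = 0.106, 0.0965 and 0.0745). Between the knockouts none of these genes passed (edgeR adjusted p = 0.755, 0.964 and 0.986). Of 16 further genes with RGS in their symbol, which include anchor proteins without an RGS domain, 5 had a row and 2 were tested. These were the RGS gene Rgs11 and the anchor gene Rgs9bp, and neither passed in any comparison. Rgs11 had 2.44 to 7.64 CPM over the 9 libraries.

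Of 11 tested G alpha subunits 1 rose in CD97 KO cells, and 2 rose and 1, the targeted Gna13, fell in G13 KO cells, beside 8.53% and 11% of all tested genes called in either direction. Gnas, the stimulatory subunit, rose in each, with a mean of 365 ± 47.9 CPM in WT, 491 ± 27.4 under CD97 KO and 511 ± 26.1 under G13 KO (SD, n = 3). The log2 fold changes of Gnas were 0.43 and 0.49 (edgeR adjusted p = 0.0110 and 0.00380). The CD97 KO call was lost without WT replicate 1 (0.0502), CD97 KO replicate 1 (0.0508) or CD97 KO replicate 3 (0.0576) and with the sex pattern as a term (0.145). Gnai2, the main Gi subunit of leukocytes and a substrate of RGS proteins, rose by 0.27 in G13 KO cells (edgeR adjusted p = 0.0319). The replicate block in the 2 groups gave 0.0662 for it, and leaving out WT replicate 1, CD97 KO replicate 1 or any G13 KO replicate gave 0.0506 to 0.0906. In CD97 KO cells Gnai2 was 0.22 higher without passing (edgeR adjusted p = 0.0867). Among 9 G beta and gamma subunits Gng10 rose by 0.38 in CD97 KO cells (edgeR adjusted p = 0.0438), and among 9 modulators and arrestins Pdcl3, a phosducin-like protein, rose by 0.50 (0.0280). With the sex pattern as a term they had 0.264 and 0.0855. Gng10 lost its call without WT replicate 1, CD97 KO replicate 2 or 3 or G13 KO replicate 1 or 2 (0.0593 to 0.195), and Pdcl3 without WT replicate 1 or any CD97 KO replicate (0.0693 to 0.119). In G13 KO cells 0 of either list passed, with Gng10 at 0.34 and Pdcl3 at 0.40 (edgeR adjusted p = 0.0601 and 0.0598). Between the knockouts Gnai2, Gng10 and Pdcl3 did not pass (edgeR adjusted p = 0.964, 0.984 and 0.961).

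Of 38 tested receptors 1 rose and 4 fell in CD97 KO cells, and 1 rose and 3 fell in G13 KO cells (median log2 fold change -0.03 and 0.14), beside 8.53% and 11% of all tested genes called. Ccr7, the chemokine receptor of migrating dendritic cells, had 174, 206 and 182 CPM in WT replicates, 53.2, 79.5 and 81.1 in CD97 KO ones and 95.2, 98.1 and 63.2 in G13 KO ones. Every knockout library lay below every WT library, and the log2 fold changes of Ccr7 were -1.40 and -1.14 (edgeR adjusted p = 0.00283 and 0.00534). Both comparisons use the same WT libraries. Gpr132, a receptor for oxidised lipids, fell by 0.53 and 0.70 (0.0212 and 0.00354). The CD97 KO call of Gpr132 was lost without WT replicate 1 or 3 or CD97 KO replicate 1 or 3 (0.0662 to 0.0825) and with the sex pattern as a term (0.211). Also in CD97 KO cells, the prostaglandin E2 receptor gene Ptger4 fell by 0.72 (edgeR adjusted p = 0.0154), but not without CD97 KO replicate 2 (0.0561) or with the sex pattern (0.0636). Adora2b, an adenosine receptor gene, rose by 0.85 (edgeR adjusted p = 0.0286). It lost its call without WT replicate 1 or 3 or any CD97 KO replicate (0.0523 to 0.101). The call was also lost with the sex pattern (0.255), with the macrophage level (0.0809) and in a fit of the 2 groups alone (0.0508). Adora2a, another adenosine receptor gene, fell by 0.84 in CD97 KO cells (edgeR adjusted p = 0.0389), a call kept in 3 of 9 fits leaving out a library. In G13 KO cells Ptafr, the receptor of platelet-activating factor, fell by 0.60 (edgeR adjusted p = 0.00904; 0.0508 without G13 KO replicate 2), and the fractalkine receptor gene Cx3cr1 rose by 1.53 (0.0122; 0.0560 without WT replicate 3). Ptger4 (-0.26) and Adora2b (0.72) moved the same way in G13 KO cells without passing (edgeR adjusted p = 0.333 and 0.05001). So did Ptafr (-0.33) and Cx3cr1 (0.91) in CD97 KO cells (0.138 and 0.110).

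Of 22 effectors of second messengers, 3 fell in CD97 KO cells, and 3 fell and 2 rose in G13 KO cells (median log2 fold change -0.23 and -0.16), beside the same 8.53% and 11% of all tested genes. Adcy6, an adenylyl cyclase inhibited by Gi, had a mean of 68.3 ± 9.67 CPM in WT, 36.2 ± 8.01 under CD97 KO and 32.8 ± 6.69 under G13 KO. The log2 fold changes of Adcy6 were -0.92 and -1.07 (edgeR adjusted p = 0.0110 and 0.00347), and both calls held in all 9 fits leaving out a library. Pde4b, a cyclic AMP phosphodiesterase, fell by 0.44 and 0.36 (edgeR adjusted p = 0.00863 and 0.0189). It lost the former call without CD97 KO replicate 3 (0.0523) and with the sex pattern (0.112), and the latter without WT replicate 3 or G13 KO replicate 2 or 3 (0.0659 to 0.0734). Pde4a fell by 0.52 in CD97 KO cells (edgeR adjusted p = 0.0147), but not without CD97 KO replicate 1 (0.0619) or with the sex pattern (0.0594). For G13 KO cells its value was -0.28, which did not pass (edgeR adjusted p = 0.137). Plcb4, a phospholipase C downstream of Gq, had a mean of 12.5 ± 3.49 CPM in WT and 128 ± 3.02 under G13 KO, a log2 fold change of 3.34 (edgeR adjusted p = 1.37e-05). Plcb1, of the same family, had 3 counts in each WT library and 22.8, 31.8 and 23.4 CPM in the G13 KO ones. It passed the filter on low counts only through the G13 KO libraries, so its levels are given as a description. Plcb1 is among the 2 effectors counted as higher, but its call is not to be set against the share of all genes. Plcb4 was also higher in G13 KO than in CD97 KO cells, which had 13.7 ± 4.13 CPM (edgeR adjusted p = 1.76e-05). Plcb2, also of this family, fell by 0.33 in G13 KO cells (edgeR adjusted p = 0.0492). That call was kept in 1 of 9 fits leaving out a library. Since it is not stated whether WT and CD97 KO mice carried the Cre, the Cre and the loss of Gna13 cannot be told apart here.

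**Figure D5:**
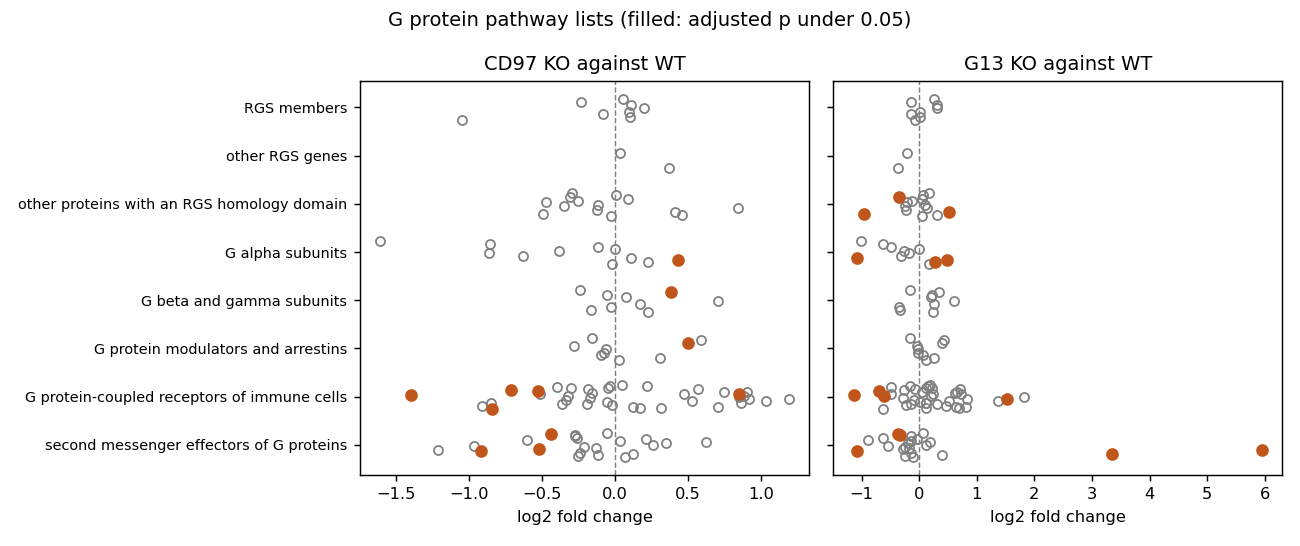
Log2 fold change against WT of each tested gene of the RGS members and 7 other lists of G protein pathway genes (points; filled where the edgeR adjusted p is under 0.05); vertical offsets only separate points, and the horizontal scales of the panels differ. The rightmost point is Plcb1, fitted against 3 counts per WT library, so its position depends on the model's handling of low counts. Of the RGS members 0 of 8 are filled, and of the effectors 3 of 22 in CD97 KO and 5 of 22 in G13 KO cells, beside 8.53% and 11% of all tested genes. The 5 include Plcb1, which passed the filter on low counts only through the G13 KO libraries. The difference between lists was not tested.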

How the data were processed

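Whole-number counts per gene symbol in 9 libraries were deposited by the authors; the submitters' processing notes name STAR, HTSeq, DESeq2 and mm10 without versions or roles. The WT columns were matched to samples by source names, groups and replicate numbers by titles. The test was edgeR 4.0.16's, run under R 4.3.3 (TMM, default filter by group, robust quasi-likelihood, all 9 libraries, genotype as factor; 12043 genes kept, 2166 removed), with Benjamini-Hochberg adjustment over all genes, and was checked on simulated data. DESeq2 1.42.0 was an alternative; others were scaling, filter, replicate block, each library left out, sex pattern and macrophage level. Intervals use the fit's standard error. Lengths come from GENCODE M21 (mm10). Members and lists were chosen with earlier results of these data known. Named from the other lists were at most 4 called genes per list and comparison, by smallest p, besides Adora2a and Plcb2, relatives of named genes. Nearest genes are given for the 2 members of smallest p. Same-numbered WT and G13 KO libraries deviated together over genes (correlations 0.111 to 0.179; other numbers -0.12 to -0.02), from title numbers, with no shared animal or day stated; for the other pairs of groups 0 of 3 correlations passed 0.1. In both WT and G13 KO groups replicate 2 has the female pattern and replicates 1 and 3 the male one. A replicate block in these groups therefore also takes up the sex pattern.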

Additional observations from a re-analysis of the deposited data

How the results depend on the processing

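Of 432 values of the 8 RGS genes in 3 comparisons under 18 alternatives, 411 kept their direction and side of the threshold. Those that crossed it were Rgs18 in G13 KO cells without WT replicate 1 (1 member called in place of 0; the counts without single libraries were 0 to 1) and Rgs1 between the knockouts with the replicate block in these 2 groups (0.99, adjusted p = 0.000732, 1 member called), where the numbers did not pair the libraries (1 of 6 correlated best with its own number); the cause was not tested. The replicate block changed no other call of a member. Signs turned in 19 values, none past the threshold. Against WT in G13 KO cells Rgs1 was 0.0062 with the replicate block over all libraries and 0.10 with it in the 2 groups, and without single libraries ranged from -0.45 to 0.43, Rgs19 from -0.039 to 0.084 and Rgs3 from -0.048 to 0.15. Against WT in CD97 KO cells Rgs10 ranged from -0.071 to 0.30 and Rgs14 from -0.11 to 0.15, and Rgs12 was 0.019 with the macrophage level and 0.018 with the sex pattern. Between the knockouts Rgs12 ranged from -0.13 to 0.054, Rgs18 from -0.014 to 0.20, and Rgs2 was -0.081 with the sex pattern. Genes called in CD97 KO cells numbered 1027, and 628 with the macrophage level, 222 with the sex pattern and 364 to 1271 without single libraries. In G13 KO cells they numbered 1322, and 693 to 1459 without single libraries. Between the knockouts they numbered 6, and 55 by DESeq2, 14 with the macrophage level, 11 without the filter, 14 and 73 with the replicate block (all libraries, 2 groups), 53 in the 2 groups alone and 4 to 25 without single libraries. With 5679946 to 13904646 counts per library, 3 counts correspond to 0.216 to 0.528 CPM, below every member's level; whether depth or the number of libraries limits the calls was not tested.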
